A study of Bos taurus with 88 samples.

Results

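Whole blood was compared between 72 h and 48 h after birth in LF beef calves, using the 14 libraries that the labels give for this breed at these 2 ages, from 7 calves bled at both, out of 88 libraries from 22 calves in the series. The series followed 3 groups of neonatal calves from birth (0 h) to 168 h by RNA sequencing. LF calves were born to Limousin x Friesian suckler cows mated to Aberdeen Angus or Charolais bulls, and stayed with their dams from birth. They suckled colostrum from the dam, with help where a calf did not suckle in time. The CL calves (7) were born to Charolais x Limousin cows, with the same bulls' breeds and the same rearing. The H calves (8) were Holstein dairy calves taken from the dam and artificially fed colostrum at another farm. Their colostrum was given at a set share of body weight, and they moved to group pens and milk replacer before the 168 h samples. The labels name no agent given to any group, and between the LF samples compared they give a different age and, within every calf, a different L number, whose meaning they do not state. LF names the breed of the dam, so sires of 2 breeds are mixed within the group, and H calves differ from LF calves in breed, farm and feeding together.

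A calf is born with almost no circulating antibody and takes it up from colostrum across the gut wall, which closes to large proteins within about the first day of life. Blood also changes its cells at this age, as the neutrophil excess of birth recedes and the calf's own lymphocytes take up their work. Whole blood RNA sums over all of these cells, and fewer cells of a type cannot be told apart from less RNA per cell. The interval from 48 h to 72 h lies after this uptake, and the comparison asks which transcripts moved over that single day.

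Reads counted on genes ranged from 19505554 to 30998999 per library, with medians of 25786298 at 48 h and 24955035 at 72 h. Of 24616 genes in the tables, 12781 passed the filter on low counts. Levels are given as counts per 1000000 counts on genes (CPM) after scaling between libraries (TMM), or as log2 CPM. A count of 3, the least taken as detected, stood for 0.0968 to 0.154 CPM across the libraries before that scaling. The intervals and floors that depth sets cover counting error only. The tables name genes by Ensembl identifier, and symbols were not paired with them here, so the genes are described by identifier, level and pattern over age, and the tissue label was not checked against marker genes. Mean differences between the ages were within the spread between calves for all 6 library measures tested, with exact two-sided sign-flip p-values from 0.234 to 0.719 (adjusted p 0.469 to 0.719, n = 7 pairs, smallest possible p 0.0156). The 72 h library of LF calf 7 stood apart, with 23.4% of its reads mapping to several places, against 7.37 to 13.4% in the other 72 h libraries, and 23.6% of its gene counts on its 20 most abundant genes, against 8.82 to 15.1%.

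Between 48 h and 72 h, 138 genes were upregulated (1.08% of genes tested) and 19 were downregulated (0.149%), together 1.23%. These are the differentially expressed genes (DEG), which had a Benjamini-Hochberg adjusted p below 0.05 in edgeR's quasi-likelihood test with a term for each calf and changed 1.5-fold or more in either direction. Upregulated genes had a median log2 fold change of 1.16, ranging from 0.59 to 2.78, and 90 of them rose by more than 1. Downregulated genes had a median log2 fold change of -0.80, ranging from -0.60 to -1.58, and 6 of them fell by more than 1 on the log2 scale. The median log2 fold change over all genes tested was -0.001. A further 37 genes passed the adjusted p alone, 19 of them up and 18 down. The number of DEG rested on the calf term and on single calves. Without the calf term edgeR called 0 genes, with 1064 at an unadjusted p under 0.05, while DESeq2 called 120 without the term and 342 with it. Leaving out 1 calf at a time gave 130 DEG without calf 1, 7 without calf 2, 28 without calf 3, 197 without calf 4, 303 without calf 5, 0 without calf 6 (1204 genes at an unadjusted p under 0.05) and 30 without calf 7. A test against a fold of 1.5, in place of a cut on the estimate, called 0 genes with edgeR, with 237 at an unadjusted p under 0.05.

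**Figure D1:**
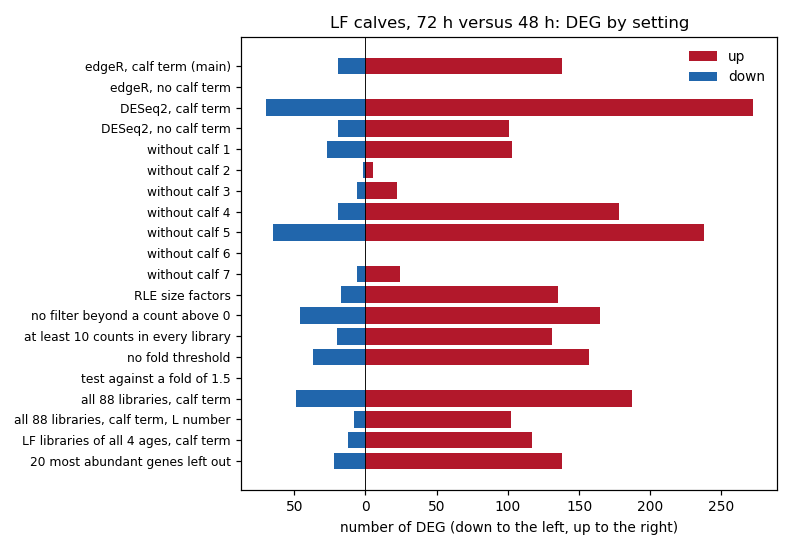
Number of DEG between 72 h and 48 h in LF calves (x axis, downregulated to the left of 0 and upregulated to the right) under each setting tried (y axis). Upregulated genes outnumbered downregulated genes in every setting that called any, while the total ran from 0 to 342.

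The DEG had a lower median level than the genes tested. Their median mean level was 8.22 CPM for the upregulated and 8.83 CPM for the downregulated genes, against 21.8 CPM over all genes tested. The most abundant upregulated gene reached a mean of 1700.0 CPM, and the most abundant downregulated gene 132 CPM. All upregulated genes together took 0.301% of the counts at 48 h and 0.645% at 72 h. The plot of change against level shows upregulated genes over most of the range of levels, and 10 of them lay above 100 CPM.

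**Figure D2:**
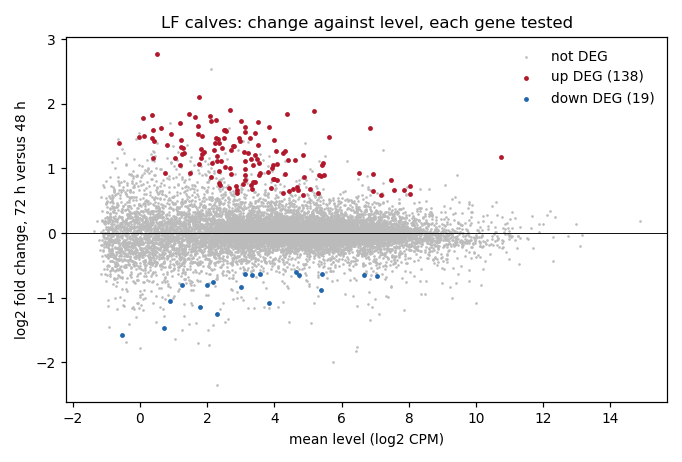
Log2 fold change at 72 h versus 48 h (y axis) against mean level in log2 CPM (x axis) for each of the 12781 genes tested in LF calves, 1 point per gene. The 138 upregulated DEG are red, the 19 downregulated DEG are blue and the others grey, and many grey points have changes as large as the DEG, at 626 genes with a fold of 1.5 or more.

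Over the genes tested, the differences among the 7 calves accounted for a median 63.6% of the sum of squares of log2 CPM among the 14 libraries and the age for 4.15%. With no structure among the libraries, the degrees of freedom alone would give mean shares of 46.2% and 7.69%. These are means, while the observed shares are medians. The age share, on 1 degree of freedom, is skewed, so 4.15% cannot be read as below what no structure would give. For 11 of the 14 libraries, the nearest other library over the genes tested was that of the same calf at the other age. In LF calf 5 the likeness was weakest, with a correlation across genes of 0.137 between the deviations of its 48 h and 72 h libraries from their age means, against 0.518 to 0.701 in the other 6 calves. Calf 5 also had the widest spread of change over all genes, an SD of 0.812 on the log2 scale against 0.459 to 0.576 in the others.

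The direction of the DEG was shared by the calves, as the calling of a DEG favours. Of the 138 upregulated genes, 80.4% were higher at 72 h in all 7 calves, and of the 19 downregulated genes 17 were lower in all 7. The other 29 DEG moved in the same direction in 6 calves. Over all genes tested, 431 (3.37%) were higher in all 7 calves and 238 (1.86%) were lower in all 7. In single calves, the median change of the upregulated genes was 0.96 in calf 1, 1.40 in calf 2, 1.46 in calf 3, 0.40 in calf 4, 1.32 in calf 5, 1.03 in calf 6 and 1.41 in calf 7. Calf 4 therefore had the smallest rise, and 116 of the 138 genes were higher in it at 72 h. The same calf had the lowest median level of these genes at 72 h, 2.40 log2 CPM against 2.56 to 4.09 in the others, and by 168 h its median stood at 3.89, within the range of 3.23 to 4.11 of the other calves.

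Values from a calf that took no part in the calling were also set beside the calls of the other 6. The 130 genes called without calf 1 moved the same way in that calf in 81.5% of cases, against 53% of all genes tested. For calf 3 this was 26 of 28 (92.9% against 55.4%), for calf 7 it was 26 of 30 (86.7% against 60.2%). For calf 2 it was 7 of 7 against 60.9%, on few genes. The shares were lower in the calves whose absence raised the number of calls, at 116 of 197 (58.9% against 54.1%) in calf 4 and 192 of 303 (63.4% against 49.8%) in calf 5. No gene was called without calf 6.

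When the mean levels at all 4 ages were set side by side, the upregulated genes fell mainly into a rising and a peaking pattern. The split was made after the values were seen, and the 48 h and 72 h values of LF calves had already chosen the genes, so it is given as a description. In LF calves, 79 of the 138 genes (57.2%) rose at each step from 0 h to 48 h, 72 h and 168 h, and 47 (34.1%) were highest at 72 h. Among all 6611 genes tested whose mean was higher at 72 h than at 48 h, as that of every upregulated DEG was, these shares were 14.5% and 43.6%, so rising genes were more frequent among the DEG and peaking genes less so. The remaining 12 followed neither course. Among the 19 downregulated genes, 14 (73.7%) were highest at 48 h, against 33.6% of the 6170 genes tested whose mean was lower at 72 h.

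The rising genes had a median gain over birth of 0.87 at 48 h, 2.37 at 72 h and 3.05 at 168 h on the log2 scale in LF calves. The birth library of LF calf 1 stood apart, with 10023822 counts on genes, 27.7% unmapped and 32.8% multimapping reads, against at least 16582088 counts, 1.33 to 2.91% and 6.51 to 9.88% in the other 6 birth libraries. Without it the gains were 0.92, 2.41 and 3.11, and those of the peaking genes described next were 0.56, 1.62 and 0.34. Their step from 48 h to 72 h differed most between calves. The median of the 79 genes changed by 1.11 in calf 1, 1.5 in calf 2, 2.00 in calf 3, 0.18 in calf 4, 1.62 in calf 5, 1.02 in calf 6 and 1.61 in calf 7. All 79 were higher at 72 h in 6 of the calves, and 57 were higher in calf 4.

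The peaking genes had a median gain over birth of 0.51 at 48 h, 1.61 at 72 h and 0.26 at 168 h in LF calves, so that most of the gain at 72 h was gone by 168 h. They were more abundant than the rising genes, with a median mean level of 15.7 CPM against 6.51 CPM. Their step from 48 h to 72 h was more even between calves, with medians from 0.62 in calf 1 to 1.15 in calf 2, and calf 4, at 0.68, lay within the range of the others.

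**Figure D3:**
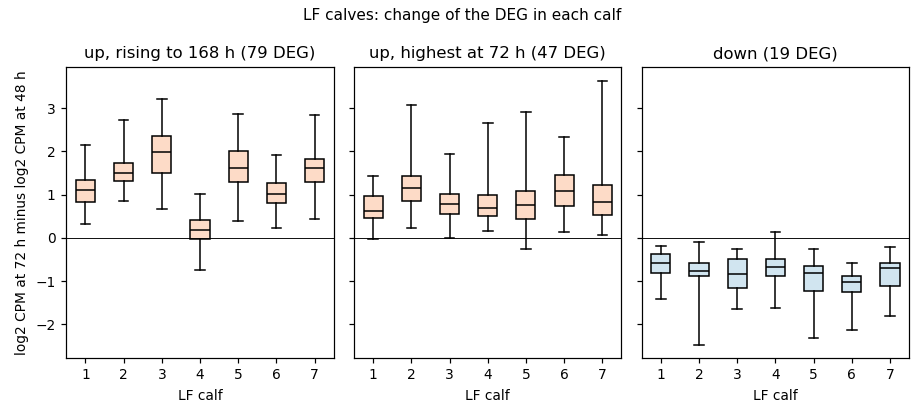
Change in log2 CPM from 48 h to 72 h (y axis) of the DEG in each LF calf (x axis), for the 79 rising genes, the 47 genes highest at 72 h and the 19 downregulated genes. Boxes span the quartiles over genes with the median as a line and whiskers reach the lowest and highest gene; calf 4 sits near 0 for the rising genes only.

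CL and H calves were other animals, and none of their values had entered the choice of these genes. In CL calves, 155 of the LF DEG were tested and 150 (96.8%) changed in the same direction between 48 h and 72 h, against 67.5% of the 12628 genes tested in both. The same comparison in CL calves called 4.89% of 12792 genes tested, of which 529 were upregulated (4.14%) and 96 downregulated (0.75%). The number of CL DEG fell to 1 without the calf term, to 358 in DESeq2 without it and, with 1 calf left out, to 357 without CL calf 2, 234 without calf 3 and 391 without calf 4. Shared DEG of the LF and CL fits with the calf term numbered 78, all in the same direction, which is 49.7% of the LF DEG and 12.5% of the CL DEG, and 75 of them were upregulated. Of the genes tested in both groups, 4.31% were called in CL calves with the direction seen in LF calves. The upregulated LF genes had a median log2 fold change of 0.65 in CL calves and 1.16 in LF calves, where they had been chosen. The CL genes chosen in CL calves had in turn a median of 0.82 in CL and 0.39 in LF calves when upregulated, and of -0.70 in CL and -0.42 in LF calves when downregulated.

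In H calves, edgeR called 0 of 12479 genes (0%), with 936 genes (7.5%) at an unadjusted p under 0.05. DESeq2 called 18 with the calf term and 11 without it, and edgeR called 78 when H calf 5 was left out. The LF DEG nevertheless changed in the same direction in 143 cases (93.5% of those tested in H calves), against 59.7% of all genes tested in both groups, with a median log2 fold change of 0.44 for the upregulated genes. In H calf 5 the rising genes changed by a median of -0.93 and the peaking genes by -0.61, and in the other 7 H calves both medians were above 0. The spread was larger in H calves, with a median standard error of the log2 fold change of 0.17, against 0.124 in LF and 0.103 in CL calves. The libraries of H calf 6 stood apart, with 49.1% of reads multimapping at 48 h and 45.7% at 72 h. Its 20 most abundant genes took 52.5% and 54.8% of gene counts at these ages. Without this calf edgeR also called 0 genes, and its part in the spread was not tested.

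The course over the 4 ages was also much alike in the other groups. Of the 79 genes that rose at each step in LF calves, 75 (94.9%) did so in CL calves and 74 (93.7%) in H calves, against 34.7% and 41.5% of all 956 genes tested that rose at each step in LF calves. Of the 47 genes highest at 72 h in LF calves, 46 (97.9%) were highest at 72 h in CL calves and 42 (89.4%) in H calves, against 68.6% and 53% of all 2880 such genes. The rising genes were called in CL calves in 56 of 79 cases (70.9%) and the peaking genes in 16 of 47 (34%). Of all genes tested in CL calves, 4.14% were called upregulated. Relative to birth, the rising genes had gained a median of 0.87 in LF, 1.59 in CL and 1.15 in H calves by 48 h, then 2.37, 2.35 and 1.5 by 72 h, and 3.05, 2.84 and 3.17 by 168 h. The 48 h and 72 h values in LF calves carry the choice of the DEG. The LF means at all 4 ages also defined the rising and peaking patterns. Every LF gain of these genes, also that from 72 h to 168 h, therefore carries that choice. Between 72 h and 168 h the H calves gained a median of 1.53, against 0.75 in LF and 0.49 in CL calves.

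**Figure D4:**
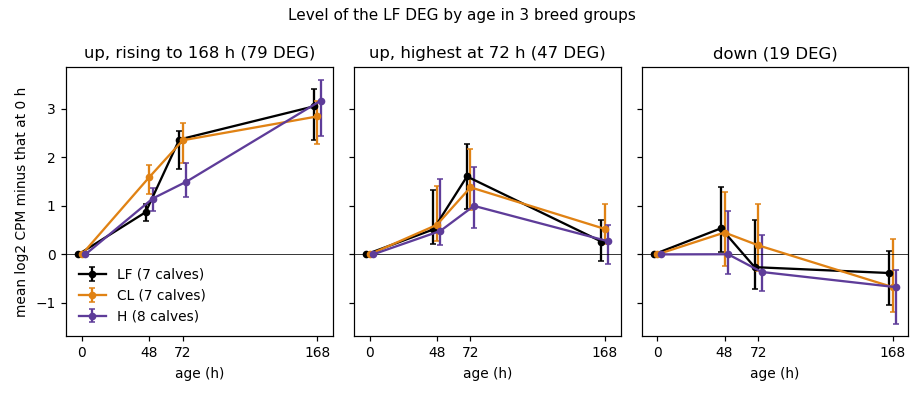
Level of the LF DEG relative to birth (y axis, mean log2 CPM of a group minus that at 0 h) against age in hours (x axis) in LF, CL and H calves. Points are medians over the 79 rising, 47 peaking and 19 downregulated genes and bars span their quartiles; by 168 h the rising genes had gained medians of 2.84 to 3.17 in the 3 groups.

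The level of these genes in LF calves was set beside that in the other groups at each age. At 0 h, 65 of the 138 upregulated genes had a lower mean in LF than in CL calves, as 46.5% of all genes tested had. At 48 h, 78.3% of them were lower in LF calves, with a median difference of -0.52 on the log2 scale, against 52.6% of all genes tested. At 72 h, 68 (49.3%) were lower in LF calves, against 52.3% of all genes tested, and at 168 h 40 (29%), against 47.9%. Against H calves, 96 of the 138 (69.6%) were lower in LF calves at 48 h (all genes tested 45.5%) and 20 (14.5%) at 72 h (all genes tested 47%), when LF calves were higher by a median of 0.63. At 168 h, 84 (60.9%) were lower in LF than in H calves, against 47.5% of all genes tested. The genes were chosen for a low 48 h or a high 72 h value in LF calves, so these differences at 48 h and 72 h carry that choice.

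Whether the change itself differed between groups was tested with the difference of the log2 fold changes. Between LF and CL calves, edgeR called 0 of 13256 genes (0%), the smallest adjusted p was 0.554, and 1180 genes (8.9%) had an unadjusted p under 0.05. DESeq2 called 5 genes with the calf term and 0 without it. Between LF and H calves edgeR called 0 of 13095 genes (0%), the smallest adjusted p was 0.993, 543 genes (4.15%) had an unadjusted p under 0.05, and DESeq2 called 0 with or without the calf term. Median standard errors of these differences were 0.17 and 0.231 on the log2 scale. CL calves had more DEG than LF calves, and H calves had 0 in edgeR. In edgeR, however, no gene was called for a different change between LF and CL or between LF and H calves. With these standard errors, that does not show that the changes were alike. The changes of CL and H calves were not tested against each other.

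The DEG given in full are the strongest 2 in either direction, by log2 fold change, of those that moved 1 way in every LF calf. ENSBTAG00000009972 ranged from 0.0 to 0.837 CPM at 48 h, with a median of 0.228, and from 0.222 to 11.4 CPM at 72 h, with a median of 1.42. Calf 7 was highest at both ages, at 0.837 and 11.4 CPM, and calves 1, 3 and 5 stayed below 0.4 CPM at 72 h, within the 48 h range. The 72 h library of calf 7 is the one that stood apart in its mapping and its most abundant genes. Whether the level of this gene went with that was not tested. Without calf 7 the log2 fold change was 2.41 (edgeR adjusted p = 0.0362). The rise was 2.78 ± 0.34 on the log2 scale (SE, n = 7 calves, edgeR adjusted p = 0.012), and single calves rose by 1.44 to 3.64. The call was lost in 2 of 17 alternative settings, without the calf term and in the test against a fold of 1.5. The gene was filtered out, and so not tested, without calf 6 and with at least 10 counts asked of every library. Counts were low, 0 to 22 at 48 h and 6 to 207 at 72 h, so the size of the fold depends on few reads in several calves. Its mean was 0.122 ± 0.0553 CPM at birth and 0.283 ± 0.36 CPM at 168 h (SD, n = 7), and it was thus highest at 72 h. The CL calves had a rise of 2.48 ± 0.41 (SE, edgeR adjusted p = 0.00881) and the H calves a log2 fold change of 1.00 ± 0.28 (SE, edgeR adjusted p = 0.533).

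ENSBTAG00000015875 belonged to the rising genes. It ranged from 0.496 to 2.37 CPM at 48 h, with a median of 1.21, and from 1.80 to 10.7 CPM at 72 h, with a median of 4.84. Calf 5 was highest at both ages, and its 48 h value of 2.37 CPM lay above the 72 h values of calf 1 (2.35 CPM) and calf 4 (1.80 CPM), so the groups overlapped only there. The rise was 2.10 ± 0.23 on the log2 scale (SE, n = 7 calves, edgeR adjusted p = 0.012). Its mean then stood at 7.95 ± 2.37 CPM at 168 h, from 0.592 ± 0.284 CPM at birth (SD, n = 7). The call was lost in 3 of 19 alternative settings, without the calf term, in the test against a fold of 1.5 and without calf 6. Without calf 6 the log2 fold change was 2.12 (edgeR adjusted p = 0.0537). In CL calves it rose by 0.95 ± 0.15 (SE, edgeR adjusted p = 0.00712), from a 48 h mean of 2.47 ± 0.812 CPM that was above the 1.18 ± 0.607 CPM of LF calves (SD, n = 7 each). The difference between the LF and CL changes was 1.15 ± 0.27 (SE), with an edgeR adjusted p of 0.554.

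ENSBTAG00000024903 ranged from 1.23 to 15.2 CPM at 48 h, with a median of 2.51, and from 0.544 to 7.82 CPM at 72 h, with a median of 1.13. The groups overlapped widely, because calves 1, 3 and 6 were high at both ages, at 15.2, 12.7 and 9.74 CPM at 48 h and 7.82, 5.65 and 4.00 CPM at 72 h. Within calves the change lay between -0.80 and -1.80 on the log2 scale, and the fitted change was -1.26 ± 0.15 (SE, n = 7 calves, edgeR adjusted p = 0.012). The call was lost in 6 of 19 alternative settings, with an edgeR adjusted p of 0.744 without the calf term, 0.103 in the fit of all 88 libraries and 0.71 there with the L number as a term, where the change was -0.79. The mean was 1.34 ± 1.31 CPM at 168 h (SD, n = 7), a step that was not tested. In CL calves the log2 fold change was -0.45 ± 0.22 (SE, edgeR adjusted p = 0.171) and in H calves -0.95 ± 0.47 (SE, edgeR adjusted p = 0.689).

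ENSBTAG00000001406 had the largest fall and was close to the limit of detection. It ranged from 0.137 to 2.03 CPM at 48 h, with a median of 0.647, and from 0.037 to 0.67 CPM at 72 h, with a median of 0.28, from 3 to 61 and 1 to 16 counts. The groups overlapped, with calves 3 and 6 highest at both ages. The change was -1.58 ± 0.33 on the log2 scale (SE, n = 7 calves, edgeR adjusted p = 0.0457), between -0.57 and -2.31 in single calves. It did not pass the filter on low counts in CL or H calves. In 11 of 17 alternative settings it did not pass the adjusted p. It was filtered out, and so not tested, without calf 3 and with at least 10 counts asked of every library.

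**Figure D5:**
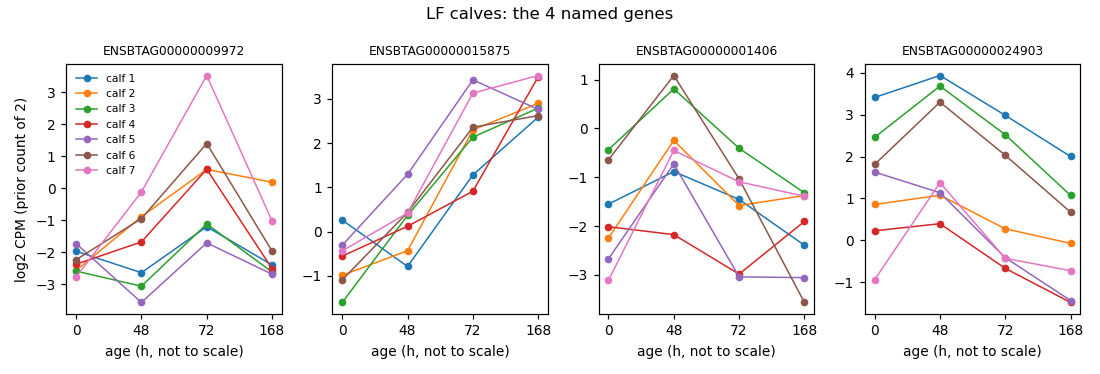
Level in log2 CPM (y axis, prior count of 2) of the 4 named genes at 0, 48, 72 and 168 h (x axis, not to scale) in each LF calf, 1 line per calf. All lines of the first pair of genes go up between 48 h and 72 h and all lines of the second pair go down, while calves differ in level at either age.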

How the data were processed

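Blood RNA was sequenced as single-end mRNA libraries. Per the labels and the study's methods, the authors trimmed the reads (cutadapt), checked them with FastQC, aligned them to UMD3.1 with STAR and deposited STAR's counts per gene; the unstranded counts were used, leaving out the summary lines. Counts on either strand were near equal, so overlapping genes cannot be told apart by strand.

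Libraries were paired by the calf's tag number. Genes were filtered with filterByExpr, scaled by TMM and tested with edgeR 4.0.16 (robust quasi-likelihood, term for calf, Benjamini-Hochberg) in R 4.3.3. DESeq2, the study's tool, was an alternative, run here as version 1.42.0, as were other scaling, filters, thresholds and sets of libraries. Levels were TMM-scaled over all 88 libraries. The scripts were tested on simulated data. Same-calf libraries deviated from their age means with r from 0.137 to 0.701 in the 7 calves. Libraries of different calves had r from -0.535 to 0.426, a range that included the 0.137 of calf 5. For 6 of the 7 calves, the 72 h library most like the 48 h library was that of the same calf. No 2 libraries of a group agreed within sampling noise. Members and lists were chosen with earlier results of these data known. Named genes are the first 2 in each direction, by log2 fold change, among DEG that moved 1 way in all 7 calves. Planned gene lists, markers and erythroid and mitochondrial shares need gene symbols, which were not paired with the identifiers here, and were not run. The share of the 20 most abundant genes was added after seeing the data.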

Additional observations from a re-analysis of the deposited data

Results flagged for a closer look

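In 24 groups of 7 values examined for a value far from the rest (6 library measures and 4 named genes at each age, and 4 measures of the calves' changes), 4 values stood apart by Dixon's 95% limit, where chance gives about 1 in 20. LF calf 4 had 4.36% unmapped reads at 48 h, against 1.26 to 2.31% in the other calves. The 72 h library of LF calf 7 had 23.4% of its reads mapping to several places, against 7.37 to 13.4%, and 23.6% of its gene counts on its 20 most abundant genes, against 8.82 to 15.1%. LF calf 5 had an SD of 0.812 for the log2 change over all genes, against 0.459 to 0.576. The counts of DEG without each of these calves were 197, 30 and 303 in that order, and the part of these measures in the result was not tested.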

How the results depend on the processing

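The number of DEG between 72 h and 48 h in LF calves (138 up, 19 down) became 0 with no replicate block (edgeR, 1064 genes at an unadjusted p under 0.05), 342 in DESeq2 with the block, 0 in a test against a fold of 1.5, and 236 in a fit of all 88 libraries. It ranged from 0 to 303 when 1 calf was left out. It stayed within 1.5 times under DESeq2 without the block (120), RLE scaling (152), no filter (211), at least 10 counts in every library (20 of them down), no fold threshold (194), LF libraries of all 4 ages (117 up, 12 down), all libraries with the labels' L number, whose meaning they do not give, as a term (110) and, chosen after seeing the data, the 20 most abundant genes left out before scaling (160). The share of upregulated genes was 87.9% and between 71.4 and 92.7% in the settings that called any. The settings shared 83 (DESeq2 without the block) to all (DESeq2 with it) of the main DEG, apart from those that called 0, the fits of all libraries with the L number (81) and those leaving out calf 2 (7), 3 (25) or 7 (26). In CL calves the count (529 up, 96 down) became 1 with no replicate block, 358 in DESeq2 without the block, and 234 to 833 with 1 calf left out. In H calves the count of 0 became 18 in DESeq2 with the block, 11 without, and 0 to 78 with 1 calf left out. The LF against CL difference had 5 genes in DESeq2 with the block and otherwise 0, and the LF against H difference 0 in every setting. The causes of these changes were not tested. The 4 named genes kept their direction in every setting that tested them, but the call was lost in 2 of 17 settings for ENSBTAG00000009972, 3 of 19 for ENSBTAG00000015875, 6 of 19 for ENSBTAG00000024903 and 11 of 17 for ENSBTAG00000001406. Leaving out 1 calf turned the mean difference in ambiguous reads from 0.00314 to between -0.0025 and 0.008 percentage points and turned no other library measure. The planned gene lists and the fit without erythroid and mitochondrial genes were not run, since they need gene symbols. Depth limits the low genes: 13 of the 138 upregulated genes had a mean below 1 CPM at 48 h.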
